A study of Zea mays with 30 samples.

Results

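The comparison described here sets whole seeds of the maize inbred line 72-3 at 12 h after imbibition (HAI) against whole seeds of the inbred line F9721 at 24 HAI. These are the 3 libraries of each group by their labels, 6 of the 30 libraries of the series. The clock time therefore differs between the groups. The question is which line differences are seen when each line is taken at a point that the study treats as similar. The study places the start of germination at 12 HAI in 72-3 and at 24 HAI, or elsewhere 36 HAI, in F9721. Its grounds include numbers of genes changed since dry seeds, starch and sucrose pathways, and the timing of amylase, sugar and hormones. The labels give only line and hours. 72-3 germinates fast and F9721 slowly. The study sequenced RNA of 72-3 from dry seeds (0 HAI) and at 6, 12 and 24 HAI, and of F9721 at the same times and also at 36 and 48 HAI, with 3 libraries in each of the 10 groups. By the methods, seeds of both lines were sterilized with dilute hydrogen peroxide, rinsed and imbibed on wet filter paper at 28 °C with a daily light and dark period, and 5 whole seeds were sampled for each time point. Each genotype is a single inbred line, so a difference between the groups combines line and clock time. The methods describe replicates from different ears but not which replicate number is which ear, and p-values measure the spread between these libraries.

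A cereal seed holds a small embryo beside a starchy endosperm, with an aleurone layer that secretes hydrolases. On imbibition, stored mRNAs of seed maturation are degraded and new transcripts for energy metabolism, translation and cell wall loosening accumulate until the radicle protrudes. In RNA of whole seeds, a lower level can come from fewer cells of a type or from less RNA per cell, and these cannot be told apart. None of the gene identifiers could be paired with the symbols of tissue markers, so the tissue make-up of the seeds was not checked.

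Reads counted on genes ran from 9161046 to 13604455 per library in 72-3 at 12 HAI (median 10706871) and from 10835458 to 12248999 in F9721 at 24 HAI (median 11227586). Levels are given as CPM, counts per 1000000 of the scaled library size. A count of 0 in the smallest of the 6 libraries allowed up to 0.304 CPM, where 3 counts were taken as the limit of detection. Limits of this kind cover counting error only. Of the tallied reads, 11.1% to 13.1% in the 72-3 libraries and 8.09% to 8.96% in the F9721 libraries fell outside annotated genes, and the part of this difference in the results was not tested. Across 22184 expressed genes, the correlation of log2(CPM + 1) was 0.982 to 0.989 between the 72-3 replicates and 0.987 to 0.991 between the F9721 replicates. The chi-square per gene between replicates was 6.72 to 20, above the value of counting noise in every pair.

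At these points of germination the lines differed in 4562 of 34746 genes tested (13.1%), of which 2168 (6.24%) were higher and 2394 (6.89%) lower in 72-3. Differentially expressed genes (DEGs) were called in edgeR's quasi-likelihood test at an adjusted p no higher than 0.01 and a log2 fold change of 2 or more in either direction. At any fold, 11523 genes (33.2%) had an adjusted p of at most 0.01, with 5772 higher and 5751 lower in 72-3. Among the DEGs the median absolute log2 fold change was 3.99, with quartiles of 2.74 and 5.82. The 3 libraries of 1 group lay wholly above the 3 of the other in 4529 of the 4562 DEGs and in 51% of all genes tested.

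Many of the DEGs had few or no reads in 1 of the groups. Of the DEGs lower in 72-3, 1301 of 2394 (54.3%) had at most 3 counts in each 72-3 library, and 661 (27.6%) had no count in any of the 3. Of the DEGs higher in 72-3, 1137 of 2168 (52.4%) had at most 3 counts in each F9721 library, and 527 (24.3%) had none. For 339 of the former no read was found in any of the 12 libraries of 72-3, and for 208 of the latter none in any of the 18 libraries of F9721. Reads of both lines were aligned to the genome of a further line, B73, so a gene that is missing or too diverged to be aligned gives the same zero as a gene that is not transcribed. By the study's summary of alignment, the mapping rate was higher in each of these 72-3 libraries than in any of these F9721 libraries. The part of this in the results was not tested. Among the 18349 genes with at least 10 counts in each of the 6 libraries, 977 (5.32%) were DEGs, with 481 higher and 496 lower in 72-3 and a median absolute log2 fold change of 2.57. The share of DEGs was 11.7% among genes with a mean log2 CPM below 0, 26.3% from 0 to 3, 8.07% from 3 to 6 and 4.09% at 6 and above.

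The rule for naming genes over the whole table picked 1 identifier in each direction without, and 1 with, a minimum of 10 counts in every library. These identifiers have no description in the sources used here. Zm00001d028330 had 97.8, 88.1 and 68.5 CPM in 72-3 at 12 HAI and 0.0871, 0.169 and 0 CPM in F9721 at 24 HAI. It was at 52.9 to 59.1 CPM in dry 72-3 seeds and at 0 to 0.204 CPM in dry F9721 seeds, so this gene was near the limit of detection in F9721 at both points. Zm00001d041746 was its mirror image, with 0.261, 0.246 and 0.405 CPM in 72-3 and 69.3, 72.5 and 63.8 CPM in F9721, a log2 fold change of -7.80 (SE 0.220, edgeR adjusted p = 1.54e-21).

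Zm00001d042104 followed another course. Its levels were 178, 204 and 244 CPM in 72-3 at 12 HAI against 1.39, 1.61 and 1.52 CPM in F9721 at 24 HAI, a log2 fold change of 7.10 (SE 0.295, edgeR adjusted p = 1.69e-19). In dry seeds of both lines it was between 0 and 0.256 CPM, and at 6 HAI it had reached 59.7 to 81.7 CPM in 72-3 and 3.75 to 4.54 CPM in F9721. The gene thus rose in both lines (log2 fold change since dry seeds 10.52 in 72-3 and 4.14 in F9721, both DEGs by edgeR), and no F9721 library up to 48 HAI exceeded 4.54 CPM. With so few dry-seed reads the change of its line difference missed the threshold (edgeR adjusted p = 0.0129).

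Zm00001d008287 had 12.67, 12.96 and 12.47 CPM in 72-3 at 12 HAI and 141, 165 and 144 CPM in F9721 at 24 HAI, a log2 fold change of -3.56 (SE 0.131, edgeR adjusted p = 1.89e-18). In dry seeds its log2 fold change was -1.61, short of the fold threshold. Its level in 72-3 was much the same as in dry seeds (12.4 to 13.4 CPM), while the F9721 dry seeds were at 34.7 to 42.2 CPM.

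How the difference varied with the F9721 time was read from the same 72-3 libraries set against every F9721 group. The number of DEGs was 5893 (17%) against F9721 dry seeds, 5137 (14.8%) against 6 HAI, 4699 (13.5%) against 12 HAI, 4562 against 24 HAI, 6480 (18.6%) against 36 HAI and 6953 (20%) against 48 HAI. All of these share the 72-3 libraries. The 4699 DEGs against 12 HAI were 2412 higher (6.94%) and 2287 lower (6.58%) in 72-3. At the same clock time of 24 HAI the lines differed in 6422 genes (18.5%). Within F9721, the step from 12 to 24 HAI by itself held 856 DEGs (2.46% of the genes tested), 685 higher and 171 lower at 24 HAI, and this step is the whole difference between setting 72-3 at 12 HAI against F9721 at 12 and at 24 HAI.

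**Figure D1:**
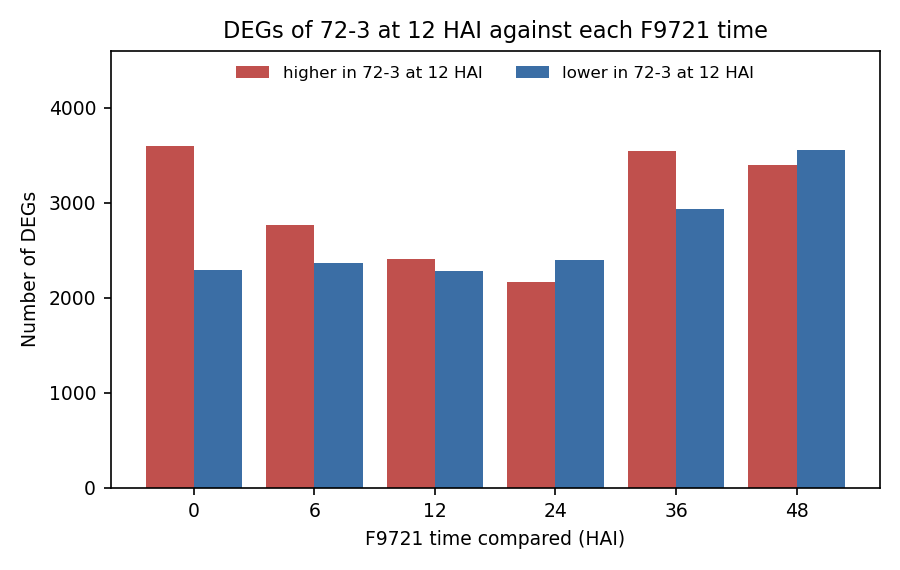
Number of DEGs (vertical axis) of 72-3 at 12 HAI against each F9721 time (horizontal axis, HAI), with genes higher in 72-3 in red and lower in blue. The totals are lowest against 24 HAI (2168 higher, 2394 lower) and 12 HAI (2412 higher, 2287 lower), and all 6 comparisons share the 72-3 libraries.

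The correlations over 22184 genes placed 12 HAI ahead of 24 HAI in F9721, where the DEG counts had the reverse order. The order of these counts depended on the threshold. At an absolute log2 fold change of 1 or more, there were 7819 DEGs against 12 HAI and 7937 against 24 HAI. The median correlation of the 72-3 12 HAI libraries was 0.846 with F9721 at 12 HAI and 0.834 with F9721 at 24 HAI, and the 9 pairs of libraries overlapped in range (0.827 to 0.858 and 0.820 to 0.841). With F9721 at 6 HAI the median was 0.832 (0.801 to 0.839), and with F9721 at 36 HAI it was 0.753. These are descriptions across genes, which are not independent replicates.

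Whether the groups stood at the same point of germination was read from genes chosen in libraries that the comparison does not use. A set of 2946 genes rose as DEGs from dry seeds both to 24 HAI in 72-3 and to 48 HAI in F9721, and 1660 genes fell in both. The genes that rose had a median log2(CPM + 1) per library of 2.30, 1.89 and 1.78 in 72-3 at 12 HAI and of 2.37, 2.50 and 2.67 in F9721 at 24 HAI. All 3 libraries of 72-3 were below those of F9721 at 24 HAI and above those of F9721 at 12 HAI, which lay between 1.51 and 1.62. For the genes that fell, the library medians were 3.71, 4.03 and 4.08 in 72-3 at 12 HAI, 3.37 to 3.48 in F9721 at 24 HAI and 4.37 to 4.43 in F9721 at 12 HAI. By both sets, 72-3 at 12 HAI lay between F9721 at 12 HAI and F9721 at 24 HAI, with replicate 1 of 72-3 nearest to F9721 at 24 HAI.

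**Figure D2:**
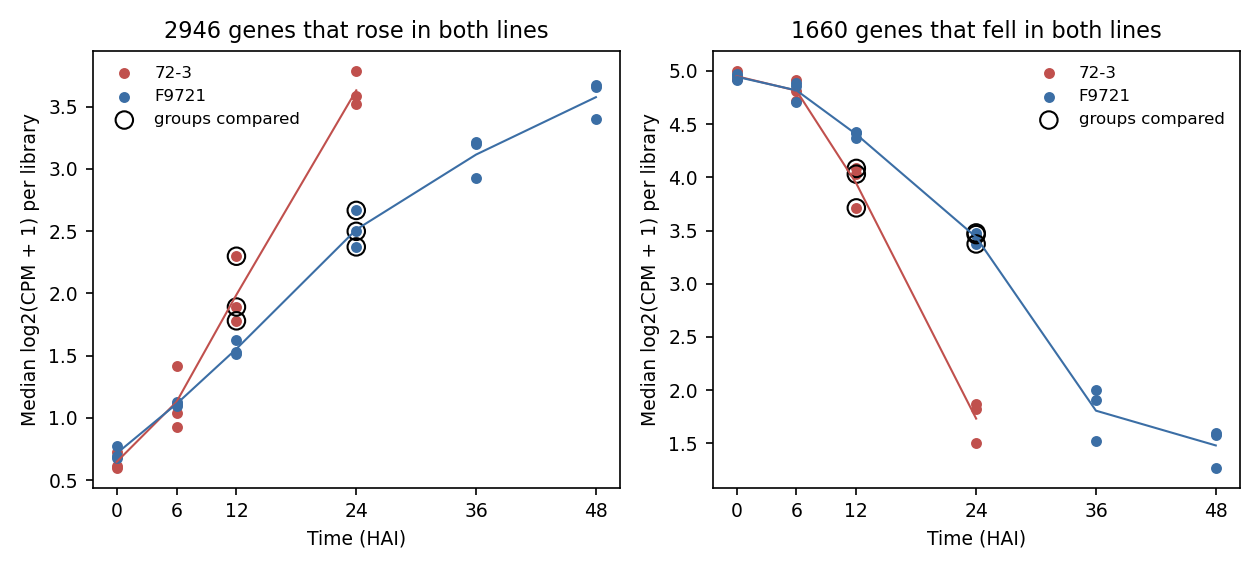
Median log2(CPM + 1) per library (vertical axis) over time in HAI (horizontal axis) for the 2946 genes that rose and the 1660 genes that fell in both lines, with 72-3 in red, F9721 in blue, points for libraries, lines through group means and circles on the 6 libraries compared. The circled 72-3 libraries (1.78 to 2.30 for the genes that rose) lie between F9721 at 12 HAI (1.51 to 1.62) and at 24 HAI (2.37 to 2.67).

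Fold changes of the same genes in the same libraries restate this position and are not further evidence for it. Among the 2946 genes that rose in germination, 552 (18.7%, against 13.1% of all genes) were DEGs between 72-3 at 12 HAI and F9721 at 24 HAI. Of these, 414 were lower and 138 higher in 72-3. The median log2 fold change of the 2946 genes was -0.59, where it was 0 over all genes tested. Single genes varied around it, with quartiles of -1.48 and 0.32, and 32% of the genes were above 0. Against F9721 at 12 HAI the same genes had a median log2 fold change of 0.61, and without 72-3 replicate 1 this median was 0.39. There, 511 were DEGs higher and 136 lower in 72-3 (22% called, against 13.5% of all genes). In dry seeds their median was 0, with 95 DEGs higher and 139 lower in 72-3 (7.94%, against 11.1% of all genes). The 1660 genes that fell had a median log2 fold change of 0.52 against F9721 at 24 HAI. Of these, 176 were DEGs higher and 45 lower in 72-3 (13.3% called, near the 13.1% of all genes). Leaving out each library in turn kept the median of the genes that rose between -0.83 and -0.49, the former without 72-3 replicate 1. By the levels of these genes, 72-3 at 12 HAI was less far along than F9721 at 24 HAI. This is a description without a test, and 72-3 replicate 1 (2.30) came close to the lowest F9721 library (2.37). A difference of stage cannot be told apart here from a line difference in the same genes.

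A large share of the line differences was present before imbibition. Dry seeds of the lines, which share no library with the comparison, differed in 3841 genes (11.1%). Of the 4562 DEGs, 2497 were DEGs in the same direction in dry seeds, which is 54.7% of the former and 65% of the latter list, and 15 were DEGs in the opposite direction. The share was alike for genes higher (55.1%) and lower (54.4%) in 72-3. The 1776 dry-seed DEGs higher in 72-3 (5.11%) had a median log2 fold change of 3.83 in dry seeds and 3.39 between 72-3 at 12 HAI and F9721 at 24 HAI, and the 2065 lower ones (5.94%) had medians of -4.15 and -3.10. By sign alone, 94.9% of the higher and 95.6% of the lower dry-seed DEGs had the same direction. Being kept as a DEG means passing the same thresholds again, so differences near the fold threshold are lost more easily. The shares by size depend on this and do not by themselves show that larger differences last longer. Of dry-seed DEGs with an absolute log2 fold change of 5 or more, 85% were kept. The share was 69.9% for those from 3 to 5 and 36.6% for those from 2 to 3. Fewer were kept where both lines had reads. Of 797 dry-seed DEGs with at least 10 counts in each of the 6 dry-seed libraries, 359 (45%) were kept, against 65% of all.

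**Figure D3:**
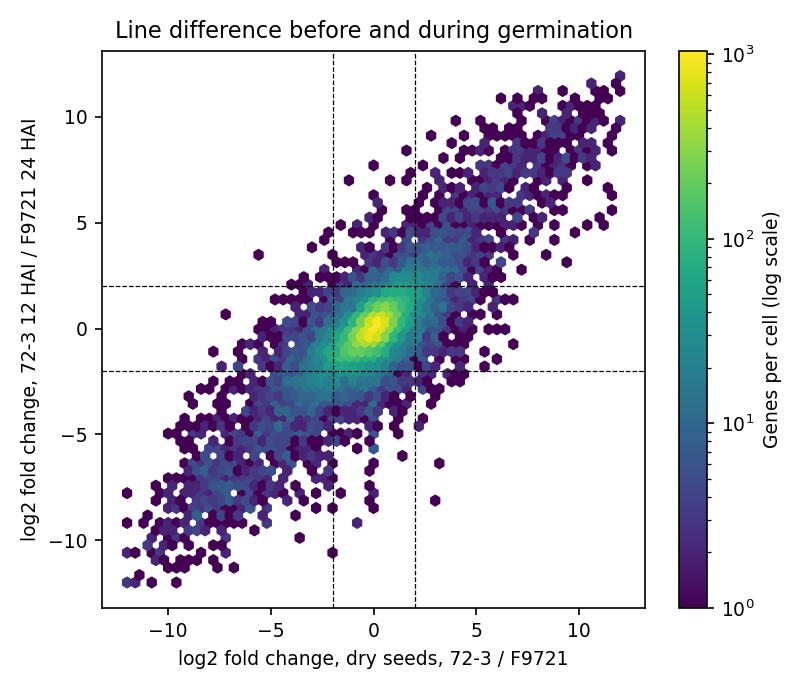
Log2 fold change of 72-3 over F9721 in dry seeds (horizontal axis) and between 72-3 at 12 HAI and F9721 at 24 HAI (vertical axis), for genes whose mean log2 CPM was 0 or above. Colour gives the number of genes per cell on a log scale, values beyond 12 are drawn at 12, dashed lines mark the fold threshold of 2, and most of the genes far from 0 lie near the diagonal.

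Other pairs of groups with no library in common gave similar shares. At 6 HAI in both lines, 2747 of the 4562 DEGs were DEGs in the same direction (60.2%, and 69.8% of the 3934 DEGs at 6 HAI). Between 72-3 at 24 HAI and F9721 at 48 HAI, when both lines had germinated, 2783 were (61%, and 62.6% of 4446). In dry seeds, at 6 HAI and in the germinated seeds alike, 1693 of the DEGs (37.1%) kept their direction and their call, 801 higher and 892 lower in 72-3.

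The remaining 2050 DEGs were not DEGs in dry seeds, but this did not by itself make them new. In dry seeds 1690 of them (82.4%) had the same sign, and 295 had an adjusted p of at most 0.01 there with a smaller fold. A direct test of the change of the line difference since dry seeds called 708 genes (2.04%), 345 toward 72-3 (0.993%) and 363 toward F9721 (1.04%). Of the 2050 DEGs, 182 (8.88%) had such a called change in their own direction. Of the 1329 dry-seed DEGs that were no longer DEGs, 236 (17.8%) had a called change against their dry-seed direction.

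Descriptions were at hand for 55 genes of an 87-gene list for the locus that the study mapped for germination speed. The whole list was examined, together with 4 candidates for germination in the cold from another mapping study, which have no description in the sources used here. The study picked candidates from the list with the help of these libraries, so their counts are not independent evidence. Of the 87 genes, 82 had a read in some library, and 7 of these (8.54%, against 13.1% of all genes) were DEGs, 2 higher and 5 lower in 72-3. At any fold, 30 (36.6%, against 33.2% of all genes) had an adjusted p of at most 0.01, 8 higher and 22 lower in 72-3. By the same measure, 11 were higher and 13 lower in dry seeds, and 11 higher and 15 lower at 12 HAI in both lines. The median log2 fold change of the list was -0.36, where it was 0 over all genes and -0.02 over the 22184 expressed genes. Set beside this, 7 genes of the list were DEGs at 12 HAI in both lines (13.5% of all genes tested were), 13 at 24 HAI in both lines (18.5% of all genes), 6 in dry seeds (11.1%) and 5 between 72-3 at 24 HAI and F9721 at 48 HAI (12.8%).

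Both malic enzymes of the list, which convert malate to pyruvate, had no read in 72-3. Malic enzyme1 (Zm00001d011289) had 0 counts in each of the 3 libraries of 72-3 at 12 HAI and 123, 153 and 173 counts in F9721 at 24 HAI (12.3 ± 1.34 CPM, SD, n = 3). This is at least 49.3-fold lower in 72-3, computed with 3 counts per library as the limit (edgeR adjusted p = 5.54e-13). Malic enzyme 2 (Zm00001d012623) had 0 counts in each 72-3 library and 35, 13 and 25 counts in F9721 (2.02 ± 0.980 CPM, SD, n = 3), at least 8.10-fold lower (edgeR adjusted p = 3.14e-06). Both genes were at 0 in all 12 libraries of 72-3 and detected in all 18 libraries of F9721, from 8.25 to 15.3 CPM for malic enzyme1 and from 0.511 to 4.198 CPM for malic enzyme 2.

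COP9 signalosome complex subunit 1 (Zm00001d048502) belongs to the complex that removes the NEDD8 modifier from cullin-based ubiquitin ligases. It had 7.05, 5.49 and 5.47 CPM in 72-3 at 12 HAI and 0.610, 0.592 and 0.303 CPM in F9721 at 24 HAI. The log2 fold change was 3.58 (SE 0.306, edgeR adjusted p = 1.26e-10), and it was 3.32 in dry seeds. In every library of 72-3 the level was at least 4.80 CPM, and in every library of F9721 at most 0.817 CPM, so the lines did not overlap at any time.

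Protein PAIR1 (Zm00001d027300), whose rice counterpart is needed for chromosome pairing in meiosis, had 0.784, 1.07 and 1.12 CPM in 72-3 and 6.36, 6.85 and 6.07 CPM in F9721 (log2 fold change -2.71, SE 0.237, edgeR adjusted p = 2.01e-10). In dry seeds its log2 fold change was -1.87, just short of the fold threshold (edgeR adjusted p = 2.56e-07). The change between the dry seeds and the germinating seeds did not pass the test (edgeR adjusted p = 0.118), so for this gene the DEG call is new while a change of the difference was not shown.

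**Figure D4:**
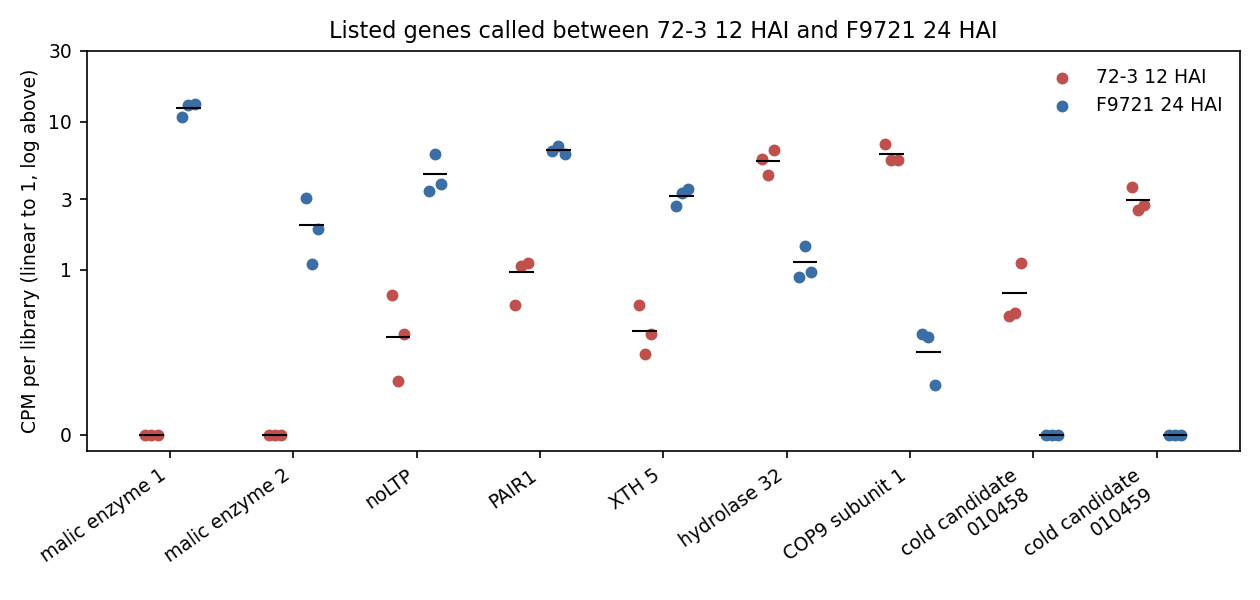
CPM per library (vertical axis, linear up to 1 and logarithmic above) for the 7 genes of the locus list and 2 cold candidates that were DEGs, with 72-3 at 12 HAI in red, F9721 at 24 HAI in blue and bars at group means of 3 libraries. The 9 genes were chosen as DEGs, of which 99.3% do not overlap between the groups, and 4 of them have a group in which all 3 libraries are at 0.

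Nonspecific lipid-transfer protein (noLTP, Zm00001d027332), of a family of small secreted proteins that carry lipids, had 0.849, 0.328 and 0.608 CPM in 72-3 at 12 HAI and 3.40, 6.00 and 3.79 CPM in F9721 at 24 HAI. The log2 fold change was -2.82 (SE 0.453, edgeR adjusted p = 9.03e-06). F9721 at 12 HAI was higher still, at 4.82 to 9.08 CPM. In dry seeds the line difference was not called (log2 fold change -0.84, edgeR adjusted p = 0.35). The change of the line difference since dry seeds did not pass the test (edgeR adjusted p = 0.132). By 24 HAI, 72-3 had 2.71 to 5.02 CPM, a rise from dry seeds with a log2 fold change of 2.68 (edgeR adjusted p = 4.38e-05). At 24 HAI in both lines the log2 fold change was -0.14 (edgeR adjusted p = 0.794).

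Hydrolase protein 32 (Zm00001d027313) had 5.62, 4.35 and 6.39 CPM in 72-3 at 12 HAI and 0.958, 1.44 and 0.986 CPM in F9721 at 24 HAI (log2 fold change 2.26, SE 0.416, edgeR adjusted p = 2.69e-05). Dry seeds of both lines had at most 0.261 CPM. It rose from dry seeds in both lines, with log2 fold changes of 4.88 in 72-3 and 3.71 in F9721 (edgeR adjusted p = 2.17e-07 and 0.00127). With dry seeds so near to 0, the change of its line difference could not be resolved (edgeR adjusted p = 0.914).

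Xyloglucan endotransglucosylase/hydrolase protein 5 (XTH 5, Zm00001d027368), of a family that cuts and rejoins the xyloglucan of cell walls, had 0.784, 0.492 and 0.608 CPM in 72-3 at 12 HAI and 2.70, 3.30 and 3.49 CPM in F9721 at 24 HAI. The log2 fold change was -2.29 (SE 0.496, edgeR adjusted p = 3.87e-04). At 12 HAI in both lines the gene was not called (log2 fold change 0.40, edgeR adjusted p = 0.701), and F9721 at 12 HAI had 0.157 to 1.02 CPM. It rose within F9721 from 12 to 24 HAI (log2 fold change 2.69, edgeR adjusted p = 3.36e-04) and in 72-3 from dry seeds to 24 HAI (3.95, edgeR adjusted p = 1.16e-06). The comparison at 12 HAI shares the 72-3 libraries. For XTH 5 the change of the line difference since dry seeds did not pass the test (edgeR adjusted p = 0.558).

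PEX11-1 (Zm00001d027366) is a peroxisomal membrane protein of a family that drives the multiplication of peroxisomes. It was also lower in 72-3, but its level fell from dry seeds in both lines. It had 3.79, 3.36 and 4.76 CPM in 72-3 at 12 HAI and 8.80, 9.38 and 8.42 CPM in F9721 at 24 HAI, with no overlap between the groups. The log2 fold change of -1.17 (SE 0.205, edgeR adjusted p = 3.14e-05) was past the p threshold but short of the fold threshold. In dry seeds it was a DEG (log2 fold change -2.24, 7.70 to 9.03 against 37.7 to 40.9 CPM), as it was at 12 HAI in both lines (-2.22, with 17.9 to 19.0 CPM in F9721). F9721 lost most of its PEX11-1 transcript from dry seeds to 24 HAI (log2 fold change -2.13, a DEG), and by 48 HAI it was at 5.13 to 6.88 CPM against 2.87 to 5.43 CPM in 72-3 at 24 HAI.

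**Figure D5:**
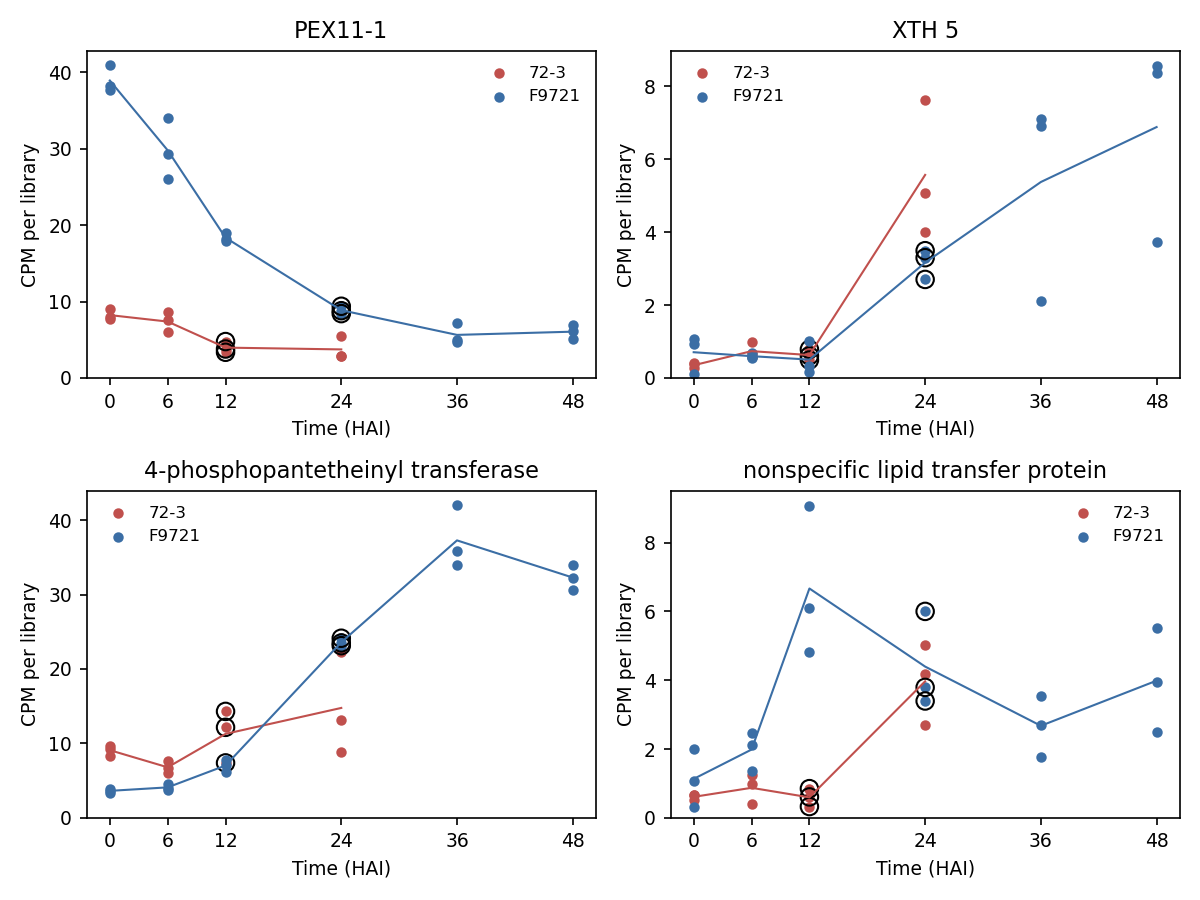
CPM per library (vertical axes) over time in HAI (horizontal axes) for PEX11-1, XTH 5, 4-phosphopantetheinyl transferase and nonspecific lipid-transfer protein, with 72-3 in red, F9721 in blue, lines through group means and circles on the 6 libraries compared. PEX11-1 drops in F9721 from 37.7 to 40.9 CPM in dry seeds to 8.42 to 9.38 CPM at 24 HAI, and XTH 5 is at most 1.08 CPM in every library of both lines up to 12 HAI.

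The change of the line difference since dry seeds passed both thresholds for 3 of the 82 tested genes of the locus list (2.04% of all genes did), of which the last 2 described were named after their values were seen. At any fold, 9 of the 82 (11%) had an adjusted p of at most 0.01 for this change in edgeR, against 7.5% of all genes. 4-phosphopantetheinyl transferase (Zm00001d027319), which attaches the phosphopantetheine arm to carrier proteins, had 14.3, 7.38 and 12.2 CPM in 72-3 at 12 HAI and 24.1, 23.5 and 23.1 CPM in F9721 at 24 HAI. In dry seeds it was higher in 72-3, at 8.36 to 9.69 against 3.37 to 3.90 CPM, so its log2 fold change turned from 1.33 to -1.06 (change -2.39, SE 0.338, edgeR adjusted p = 1.41e-05). It rose in F9721 from dry seeds to 24 HAI (log2 fold change 2.70) and not by the test in 72-3 to 12 HAI (0.31, edgeR adjusted p = 0.347).

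Vacuolar protein 8 (Zm00001d027365), named for a yeast protein of the vacuole membrane, was a dry-seed DEG that was lost. Its levels were 6.40, 6.31 and 7.20 CPM in 72-3 at 12 HAI and 5.75, 7.95 and 5.69 CPM in F9721 at 24 HAI, and these overlapped (log2 fold change 0.04, SE 0.311). Dry seeds had 6.15 to 7.96 CPM in 72-3 and 0.720 to 1.43 CPM in F9721 (log2 fold change 2.66), and the change was -2.62 (SE 0.525, edgeR adjusted p = 9.01e-04). The uncharacterized Zm00001d027302 changed by -2.13 (SE 0.369, edgeR adjusted p = 1.78e-04), from 11.5 to 13.2 against 3.58 to 5.44 CPM in dry seeds to 17.4 to 29.5 against 37.9 to 38.1 CPM.

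The other enzymes and signalling genes of the locus list differed by less than the fold threshold. Retinol dehydrogenase 12 (Zm00001d027353) had 52.9, 54.8 and 59.3 CPM in 72-3 and 127, 169 and 144 CPM in F9721 (log2 fold change -1.40, SE 0.361, edgeR adjusted p = 0.0023), and its log2 fold change was -1.24 in dry seeds. The LysM domain protein (Zm00001d027325), with a domain that binds peptidoglycan or chitin, had 11.69, 9.43 and 12.97 CPM in 72-3 and 18.3, 24.0 and 19.6 CPM in F9721 (log2 fold change -0.86, SE 0.180, edgeR adjusted p = 2.62e-04). ATPP2-A13 (Zm00001d027361) had 0.979 to 1.52 against 0.338 to 0.610 CPM and did not pass the test (edgeR adjusted p = 0.135). The 4 groups of membrane transport, organelle and membrane trafficking, uncharacterized genes and other described genes were pooled because they held no DEG. All 48 tested members were therefore short of a DEG call by the choice of groups, where 13.1% of all genes passed. Of the 48, 13 (27.1%, against 33.2% of all genes) had an adjusted p of at most 0.01 in edgeR, at absolute log2 fold changes of 0.50 to 1.84.

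Among genes of the cytoskeleton, trafficking and protein turnover the abundant members differed modestly. Beta tubulin1 (Zm00001d027295), a subunit of microtubules, had 125, 127 and 117 CPM in 72-3 at 12 HAI and 55.0, 59.9 and 66.7 CPM in F9721 at 24 HAI (log2 fold change 1.02, SE 0.173, edgeR adjusted p = 1.77e-05), and it was 1.38 in dry seeds. AP-2 complex subunit alpha-2 (Zm00001d048511), of the clathrin adaptor for endocytosis, had 71.7, 71.7 and 62.8 CPM in 72-3 and 155, 125 and 122 CPM in F9721 (log2 fold change -0.96, SE 0.121, edgeR adjusted p = 1.94e-07). In dry seeds AP-2 alpha was at 88.0 to 97.8 against 99.0 to 101 CPM, with a log2 fold change of -0.11, and it changed by -0.85 (edgeR adjusted p = 9.82e-04).

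The remaining abundant members also differed by less than the fold threshold. SKP1-like protein 21 (Zm00001d048536), of the SCF ubiquitin ligases, had a log2 fold change of -0.97 (edgeR adjusted p = 0.00338), and the molybdate-anion transporter (Zm00001d027344) one of -0.79 (edgeR adjusted p = 1.12e-04). Mediator subunit 12 (Zm00001d027299), of the coactivator complex of RNA polymerase II, was at 0.75 (edgeR adjusted p = 0.00224), and cingulin (Zm00001d027307) at -0.48 (edgeR adjusted p = 0.00541). The trihelix transcription factor GTL1 (Zm00001d027335, log2 fold change -0.91, edgeR adjusted p = 0.0225) and the signal recognition particle receptor (Zm00001d027293, 0.40, edgeR adjusted p = 0.0104), which docks ribosomes making secreted proteins at the endoplasmic reticulum, missed the p threshold. The chaperonin (Zm00001d027371, log2 fold change -0.22, edgeR adjusted p = 0.168) and the CemA-like protein (Zm00001d027320, log2 fold change 0.06, edgeR adjusted p = 0.947) missed it too.

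Of the 4 cold germination candidates, 2 were DEGs higher in 72-3, where 6.24% of all genes were. Zm00001d010459 had 55, 31 and 27 counts in 72-3 at 12 HAI (2.96 ± 0.558 CPM, SD, n = 3) and 0 counts in each library of F9721 at 24 HAI, at least 11.9-fold higher in 72-3 (edgeR adjusted p = 7.45e-08). It was detected in dry seeds of both lines, at 4.49 to 5.18 CPM in 72-3 and 0.306 to 0.840 CPM in F9721. Zm00001d010458 had 11, 9 and 11 counts in 72-3 and 0 in each library of F9721, at least 3.46-fold higher (edgeR adjusted p = 4.26e-05). Dry seeds had 0.128 to 0.133 CPM in 72-3 and 0 to 0.118 CPM in F9721. For this gene the change of the line difference since dry seeds did not pass the test (edgeR adjusted p = 0.269). Zm00001d010454 had 23.8, 23.9 and 22.8 CPM in 72-3 and 56.7, 44.0 and 47.7 CPM in F9721 (log2 fold change -1.07, edgeR adjusted p = 1.42e-06, short of the fold threshold). Zm00001d050021 overlapped between the groups, at 1.42 to 2.16 and 1.14 to 2.37 CPM.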

How the data were processed

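Paired reads of 125 bp were trimmed with fastp by the authors, Hisat2 was used for alignment to B73 AGPv4, and the deposited counts are raw reads per gene from HTSeq (union mode). TPM values were deposited as well and came from R. Tool versions and the strand setting are not given in the sources used here, so overlapping genes and genes with near-identical copies are uncertain. Reads not assigned to a gene were left out. In the 6 libraries, 8.09% to 13.1% of reads lay outside genes and 1.80% to 1.93% on several genes. Samples were grouped by line and time from their labels.

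The tests ran in edgeR 4.0.16 (R 4.3.3) on the counts. After TMM scaling, the means of the 10 groups were estimated by quasi-likelihood, with a fit to the 30 libraries together, for the 34746 of 39005 genes with at least 1 read, with Benjamini-Hochberg adjustment. Thresholds for DEGs were 0.01 for the adjusted p and 2 for the absolute log2 fold change, as in the study's methods. Fold changes are 72-3 over F9721. The steps were tested on simulated data with the same spread for every gene and no changed genes at low levels. That check does not show how well genes with few counts or a larger spread are called.

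Named were listed DEGs, the study's candidates, the 2 most abundant other members of each list with a named function or of the cold candidates, and in each direction the smallest p over all genes, with and without at least 10 counts per library. The members and lists were chosen with earlier results of these data known. Alternatives were DESeq2 1.42.0, 2 other scalings, filterByExpr, other thresholds, a replicate block, only the groups compared, limma 3.58.1 on log2(TPM + 1), and each library left out. Depth per library is given above. No identifier could be matched to the RefSeq table given, so tissue markers and sequences were not used here.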

Additional observations from a re-analysis of the deposited data

Results flagged for a closer look

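For 6 named genes the line difference between 72-3 at 12 HAI and F9721 at 24 HAI differed from that in dry seeds by a direct edgeR test of the change, at an adjusted p of at most 0.01. The changes, on the log2 scale and positive toward 72-3, were 1.08 for PEX11-1 (Zm00001d027366, adjusted p = 0.00972), -2.39 for 4-phosphopantetheinyl transferase (Zm00001d027319), -0.85 for AP-2 complex subunit alpha-2 (Zm00001d048511), -2.62 for vacuolar protein 8 (Zm00001d027365), -2.13 for Zm00001d027302 and -1.95 for Zm00001d008287 (edgeR adjusted p = 1.17e-08). Only the changes of Zm00001d027319, Zm00001d027365 and Zm00001d027302 also passed the fold threshold.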

How the results depend on the processing

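The count of 4562 DEGs was 4187 with DESeq2 (4129 shared with the same direction), 4557 with DESeq2's size factors, 4574 with library totals, 4078 with filterByExpr, 4449 with only the 2 groups and 3718 with a threshold of 0.001 on the adjusted p. Fits without 1 library gave 4154 to 4269. Accepting an absolute log2 fold change of 1 gave 7937 DEGs, 3847 higher and 4090 lower in 72-3. It gave 7819 against F9721 at 12 HAI, 11003 against 36 HAI, 10833 at 24 HAI in both lines, 1974 changed since dry seeds, 4196 shared with dry seeds, 4493 shared with 72-3 at 24 HAI against F9721 at 48 HAI, and 17 of the locus list. limma on log2(TPM + 1), where low genes have small folds, gave in the same order 1775, 913, 862, 1782, 3066 and 3014, then 878 shared with dry seeds, 1035 with the germinated seeds and 3 of the locus list. The change since dry seeds was called for 467 genes at the threshold of 0.001 and for 604 to 708 in fits without 1 library.

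With the replicate number as a block, 4470 DEGs were called. Between the 2 groups compared, the same-numbered libraries did not deviate together (correlations of deviations -0.235, -0.224 and -0.0956), so the numbers were not taken as a pairing. These groups are different lines, so the check cannot show a pairing by ear over time within a line. Such a pairing was not examined.

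Of 479 single-gene values over 32 genes, 457 kept direction and call, 5 lost the call, all with TPM (PAIR1 -1.12, hydrolase 32 1.93, XTH 5 -1.76, COP9 subunit 1 1.34, Zm00001d010458 0.43), and 5 gained it at the lower fold threshold. The other 12 changed sign close to 0. Leaving out a library moved Zm00001d027320 between -0.071 and 0.247, Zm00001d027365 between -0.0496 and 0.211 and Zm00001d050021 between -0.261 and 0.264, and Zm00001d050021 was 0.054 with library totals, 0.041 with TPM and 0.0028 with only the 2 groups. For the genes that fell in germination, the median against F9721 at 12 HAI moved from -0.53 to -0.32 with library totals and -0.20 with TPM. Genes with few counts are limited by depth, and a zero in 1 line cannot be told apart from a gene that could not be aligned.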
